A study of Mus musculus with 19 samples.

Results

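The mitosis genes described here are 44 genes that cells switch on to divide their chromosomes and split in 2, chosen by name: cyclins and the kinase they drive, mitotic kinases, checkpoint and kinetochore proteins, kinesins, spindle and cytokinesis proteins, and proteins that shape chromosomes. The array measured 40 of them, out of 18820 gene symbols in all, each through its brightest probe set with a single gene symbol. Ccnb1, Kif20a, Nusap1 and Ube2c have no probe set of their own in the array's annotation and were not analysed here. The cells were differentiated 3T3-L1 preadipocytes, a mouse fibroblast line that becomes fat-storing adipocytes in culture, taken through the usual cocktail of dexamethasone, IBMX and insulin, kept without serum from day 7 and treated for 48 h from day 8.

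Each acid was given at 250 µM on 2% albumin, and all groups shared the insulin-containing maintenance medium. 2 acids were saturated: PA, palmitic acid, with a chain of 16 carbons (n = 4 arrays), and SA, stearic acid, with 18 (n = 4). The other 2 carried 1 double bond: PMA, palmitoleic acid, titled PMO in the labels, with 16 carbons (n = 4), and OA, oleic acid, with 18 (n = 3, since 1 OA replicate had an amplification problem). Control cells (n = 4) received albumin and the ethanol vehicle alone. Arrays of a group are labelled as biological replicates, and nothing says whether they were separate cultures, so p-values measure the spread between these arrays.

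Mitotic genes are off in resting cells and come on together late in the cell cycle, when the MuvB complex with B-Myb and FoxM1 binds their promoters. In resting cells the same MuvB core joins repressor proteins in the DREAM complex and keeps them off. Confluent 3T3-L1 cells divide again for a short time after the hormones that start differentiation, the mitotic clonal expansion, and then leave the cell cycle as they fill with fat. In bulk RNA of such a culture, fewer dividing cells and less of each RNA per dividing cell cannot be told apart.

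Values are log2 RMA expression, differences are log2 differences ± standard error, and a gene passed at a Benjamini-Hochberg adjusted p under 0.05 over all 18820 genes by limma. Over all probe sets the array medians ranged from 5.23 to 5.43, with correlations of 0.988 to 0.997 between arrays. PMA replicates 1 and 4 were shifted upward over the whole chip, with 84.4% and 80.8% of all genes above their control mean, against 43.4% to 69.1% on the other 17 arrays. All 11 adipocyte markers measured and 9 of 10 preadipocyte and fibroblast markers lay above 4.98, the level under which 95% of 990 olfactory receptor genes lay, and so did 34 of the 40 mitosis genes. Ttk, Kif20b, Kif4, Kif15, Ndc80 and Hmmr were below it. Of 5 macrophage markers only Cd68 was above it, and Ptprc, Adgre1, Csf1r and Itgam were not. Probe sets differ in how brightly they bind, so this level marks dim probe sets and ranks no genes.

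None of the 40 mitosis genes passed in any of 11 comparisons, which included the mean of the 4 acids against control (0.197% of all genes passed). Differences were small and spread over many members. With OA 35 of 40 members were above control (56.7% of all genes), with PMA 37 (78.5%), with SA 29 (58.1%) and with PA 20 (61.7%). These 4 comparisons share the 4 control arrays. The mean over the 40 genes was 5.99 ± 0.04 in control (SD, n = 4), 5.96 ± 0.08 with PA, 6.03 ± 0.09 with SA, 6.08 ± 0.05 with PMA and 6.13 ± 0.06 with OA. Neighbours in this order lay within each other's spread. The 4 control arrays stood at 6.02, 6.01, 5.96 and 5.95, and the 3 OA arrays at 6.20, 6.10 and 6.09, so that these groups did not overlap. The PMA arrays at 6.13, 6.05, 6.03 and 6.12 lay above all control arrays as well, while the PA arrays at 6.04, 5.90, 6.03 and 5.89 spanned the control range and the SA arrays at 6.16, 6.00, 5.98 and 5.96 overlapped it. PA replicates 2 and 4 were the lowest of all 19 arrays, and SA replicate 1 stood apart from the other SA arrays. In every group replicate 1 was the highest array, and OA had no replicate 4, which was the lowest array in control, PA and SA. Against the mean of all genes on the same array, the mitosis genes lay lower by 0.33 ± 0.03 in control, and the corresponding difference was -0.38 ± 0.09 with PA, -0.29 ± 0.03 with PMA, -0.30 ± 0.09 with SA and -0.20 ± 0.05 with OA (SD). On this scale PMA overlapped control, and OA did not.

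**Figure D1:**
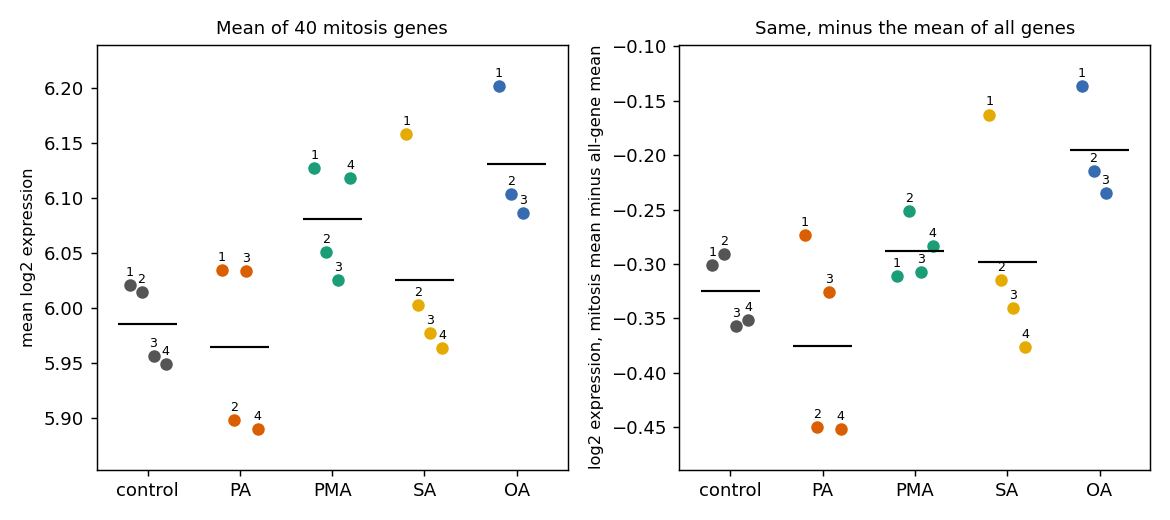
Mean log2 expression of the 40 measured mitosis genes on each array (left) and the same minus the mean of all genes on that array (right), by group; points are arrays with their replicate number and lines are group means. The 3 OA arrays lie above the 4 control arrays in both panels, while PMA lies above control only on the left.

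OA, the acid with 18 carbons and 1 double bond, gave the highest values. The median difference of the members from control was 0.15, against 0.02 over all genes. With unadjusted p under 0.05, 17 of 40 members were higher and 0 lower, where 7.99% of all genes were higher; no member passed the adjusted threshold, which 0.861% of all genes passed in either direction. In 13 of 40 members all OA arrays lay above all control arrays, against 9.72% of all genes. The count of 17 became 6 without OA replicate 1, when it was 5.76% of all genes, and 11 without control replicate 3 (7.10% of all genes). With array quality weights 8 members passed, where 6.31% of all genes did. The 95% interval stayed within 1.5-fold for 39 of 40 members, the exception being Bub1, whose interval reached 0.59.

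The chromosome structure genes were the highest group with OA. All 6 of them, Mki67, Top2a, Ncapg, Ncaph, Smc2 and Smc4, were above control, 5 at unadjusted p under 0.05, with a median of 0.27. Mki67 encodes the Ki-67 protein that coats mitotic chromosomes and is the usual stain for dividing cells. Mki67 stood at 6.24, 6.33, 6.20 and 6.05 on the control arrays and at 6.55 on each OA array, a difference of 0.35 ± 0.09 or 1.27-fold (adjusted p = 0.0782). It was the member with the largest difference, and its OA values lay above every other array of the 5 groups. The other groups overlapped control: Mki67 ranged from 6.05 to 6.33 with PA, from 6.18 to 6.50 with PMA and from 6.12 to 6.52 with SA. The adjusted p of Mki67 came under the threshold when only control and OA arrays were fitted (0.0397), with a trended robust spread (0.0478), with array quality weights (0.00542) and without PA replicates 2 and 4 (0.0401).

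Ncaph and Ncapg, subunits of condensin I, which compacts chromosomes, went the same way. Ncaph read 6.08, 6.14, 6.19 and 6.01 in control and 6.57, 6.38 and 6.31 with OA, 0.32 ± 0.09 higher (adjusted p = 0.0862). Its groups did not overlap. Ncapg was 0.26 higher and Smc2, the ATPase shared by both condensins, 0.18 higher, also without overlap. Smc4, the partner of Smc2, was 0.15 higher with overlap. Top2a, the topoisomerase that untangles sister chromatids, read 6.61, 6.83, 6.48 and 6.71 in control and 7.03, 6.93 and 6.87 with OA, 0.29 ± 0.11 higher (adjusted p = 0.284). The 2 dimmer probe sets of Top2a lay under 3 on the log2 scale and differed by -0.03 and 0.13.

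Ccna2, Ccnb2 and Cdk1, the cyclins of late cycle and the kinase that drives entry into mitosis, were all above control with OA. Ccna2 read 7.56, 7.47, 7.38 and 7.35 in control and 7.84, 7.80 and 7.58 with OA, 0.30 ± 0.09 higher (adjusted p = 0.133), and the groups did not overlap. Cdk1 read 8.58, 8.46, 8.44 and 8.30 in control and 8.73, 8.50 and 8.53 with OA, 0.14 ± 0.08 higher (adjusted p = 0.562), with overlap. Plk1, the polo kinase needed for spindle formation, read 6.75, 6.54, 6.56 and 6.53 in control and 6.98, 6.86 and 6.70 with OA, 0.26 ± 0.09 higher (adjusted p = 0.213). Control replicate 1 was high for Plk1 and overlapped OA. Of the mitotic kinases only Melk was below control (-0.04 ± 0.07).

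The checkpoint genes, whose products hold back anaphase until chromosomes are attached, were also above control with OA, 4 of 4, and so were all 7 kinesins measured, the motors that build and move the spindle. Bub1, a checkpoint kinase, read 5.77, 5.60, 5.55 and 5.70 in control and 6.11, 5.90 and 5.94 with OA, 0.33 ± 0.13 higher (adjusted p = 0.271), without overlap. Ttk, the kinase that starts checkpoint signalling, was 0.24 ± 0.09 higher, and Kif11, the motor that pushes spindle poles apart, 0.22 ± 0.08. All 3 cytokinesis genes were above control: Ect2, which activates the small GTPase that forms the cleavage furrow, by 0.28, Anln, which anchors the contractile ring, by 0.22 and Racgap1, of the central spindle, by 0.08. The 5 members that were not above control lay close to it: Birc5, the survivin subunit of the chromosomal passenger complex, at -0.06 ± 0.09, Melk at -0.04, Prc1, the bundler of the central spindle, at -0.02, Cdc20, the activator of the anaphase-promoting complex, at -0.0047, and Cenpa, the centromeric histone. Birc5 read 5.39, 5.14, 5.14 and 5.26 in control and 5.41, 5.07 and 5.03 with OA, so the groups overlapped. Aurkb, the kinase of the passenger complex, read 7.16, 7.14, 7.00 and 7.00 in control and 7.32, 7.16 and 7.21 with OA, 0.16 ± 0.06 higher (adjusted p = 0.286).

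**Figure D2:**
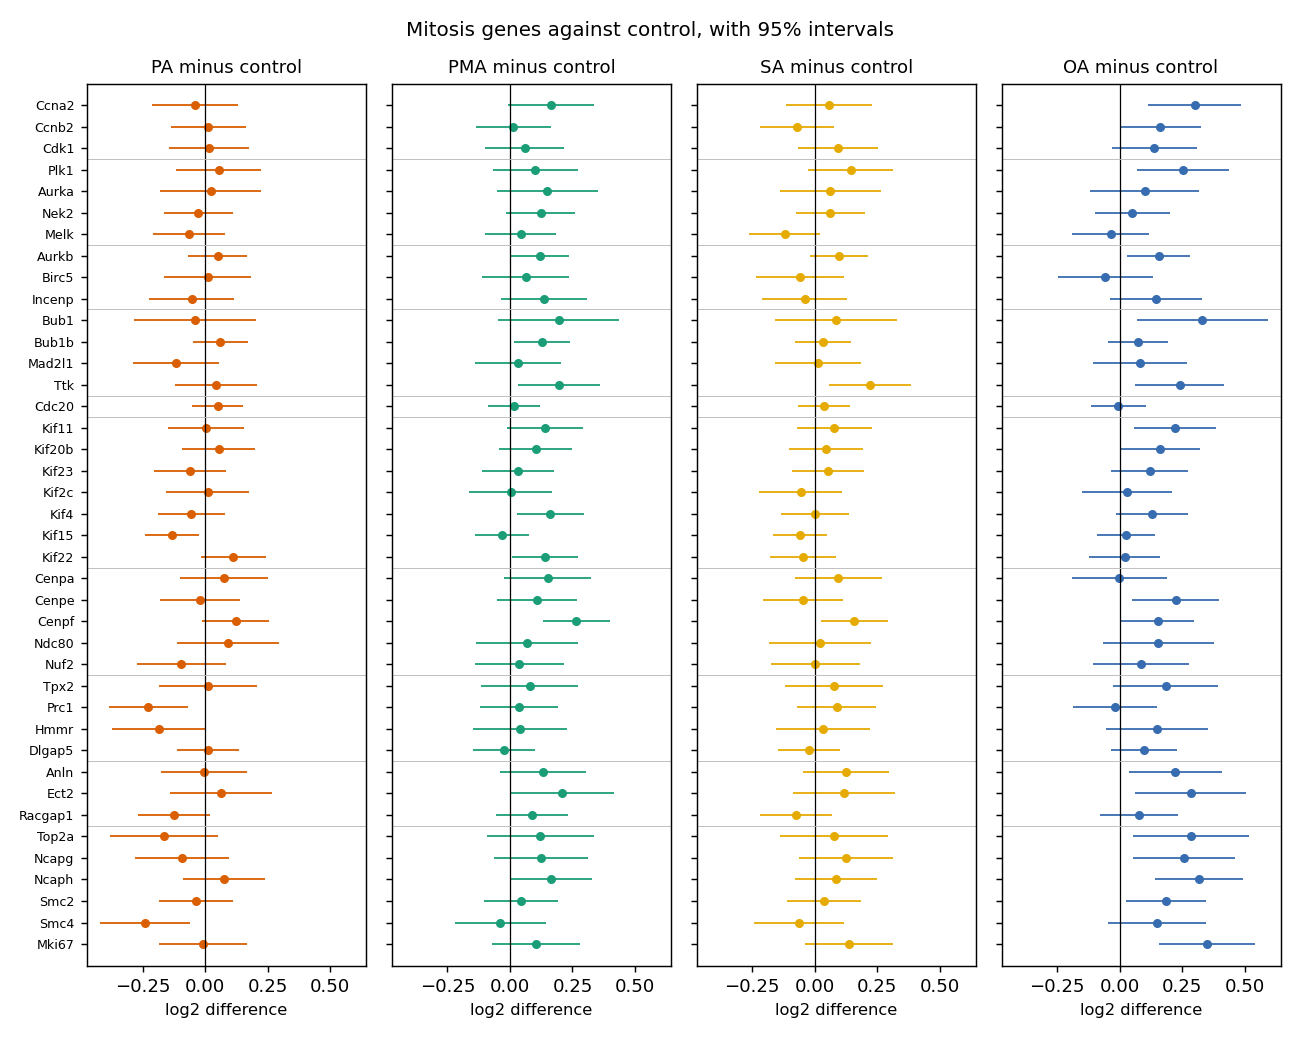
Log2 difference from control of each measured mitosis gene for the 4 acids, points with 95% intervals from the model, genes grouped by role (grey lines). With OA 35 of 40 points lie right of 0 and Mki67 is farthest at 0.35; with PA 20 of 40 do, and Smc4 and Prc1 lie lowest.

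With PMA no member passed either, where 0.266% of all genes did. The median difference was 0.10, but the median over all genes was itself 0.06, and PMA replicates 1 and 4 were the arrays shifted upward. At unadjusted p under 0.05, 8 of 40 members were higher and 0 lower, where 14.5% of all genes were higher. In 5 members the PMA arrays lay above all control arrays (9.29% of all genes). The count of 8 became 2 without PMA replicate 1 and 2 without PMA replicate 4. It was 4 without control replicate 4 and 5 without control replicate 3. After cyclic loess between arrays, which removes shifts of whole arrays, it was 1. The shares of all genes at these settings are not given here, so the changes cannot be ascribed to the members alone.

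The member farthest from control with PMA was Cenpf, a large coiled-coil protein of the kinetochore. Cenpf read 5.02, 4.98, 5.08 and 5.04 in control and 5.40, 5.24, 5.25 and 5.30 with PMA, 0.27 ± 0.06 higher (adjusted p = 0.0713), and the groups were far apart. Its control values lay close to the olfactory receptor level of 4.98. Cenpf was also above all control arrays with SA at 5.17, 5.16, 5.11 and 5.32 (0.16 ± 0.06, adjusted p = 0.444) and with OA at 5.31, 5.11 and 5.12 (0.15 ± 0.07, adjusted p = 0.395). With PA it read 5.03, 5.30, 5.11 and 5.17 and overlapped control. The adjusted p of Cenpf with PMA came under the threshold when the dimmest 1 in 3 genes were left out (0.0429) and without PA replicate 2 (0.0400). Kif4, the chromosome-arm kinesin, read 4.42, 4.31, 4.44 and 4.42 in control and 4.70, 4.45, 4.53 and 4.56 with PMA, 0.16 ± 0.06 higher (adjusted p = 0.236) on a dim probe set. The 3 members below control with PMA were Smc4 (-0.04), Kif15, a spindle kinesin (-0.03, with 4.83, 4.76, 4.80 and 4.78), and Dlgap5, a microtubule-binding spindle protein (-0.02). For Mki67 the difference with PMA was 0.11, with a 95% interval from -0.07 to 0.28.

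With SA the members lay near control. Their median difference was 0.05, against 0.02 over all genes, and without SA replicate 1 it was -0.01. No member passed, where 0.165% of all genes did, and 2 of 40 were higher at unadjusted p under 0.05 (5.64% of all genes). These 2 were Ttk and Cenpf. The count was 4 without control replicate 1 and 1 without control replicate 4, with the shares of all genes at those settings not given here. Ttk read 4.07, 4.39, 4.20 and 4.02 in control and 4.44, 4.49, 4.28 and 4.35 with SA, 0.22 ± 0.08 higher (adjusted p = 0.363), with overlap on a dim probe set. Melk, a kinase abundant in dividing cells, was lowest at -0.12 ± 0.07 (adjusted p = 0.691), with 5.11, 4.89, 5.03 and 5.08 in control and 4.96, 4.98, 4.87 and 4.82 with SA. Kif15 was next among the lower members by p, at 4.85, 4.74, 4.80 and 4.69 with SA (-0.06). On SA replicate 1, 37 of 40 members lay above their control mean, and on the other SA arrays 25, 19 and 20 did.

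PA had 3 of 40 members below control at unadjusted p under 0.05, near the 4.55% of all genes that were lower. No member was higher (10.9% of all genes). For PMA, SA and OA no member was lower at that p. Without control replicate 1, PA replicate 1 or PA replicate 2, 1 member was higher at that p. The median difference of the members was 0.00, against 0.03 over all genes, and ranged from -0.03 without PA replicate 1 to 0.02 without PA replicate 4. No member passed, as no gene of the array did (0%). Smc4 read 7.50, 7.75, 7.57 and 7.64 in control and 7.60, 7.18, 7.48 and 7.25 with PA, -0.24 ± 0.09 different (adjusted p = 0.239). Prc1 read 5.97, 5.86, 5.93 and 5.93 in control and 5.86, 5.61, 5.81 and 5.50 with PA, -0.23 ± 0.08 different (adjusted p = 0.228). In both genes replicates 2 and 4 were low and the other 2 PA arrays lay at or near the control values. Kif15, at 4.64, 4.60, 4.75 and 4.78 with PA and 4.86, 4.79, 4.79 and 4.86 in control (-0.13 ± 0.05), was the only member whose PA arrays all lay below control, on a dim probe set (1.65% of all genes). Without PA replicate 1 the adjusted p of Prc1 was 0.0499. Kif22, a chromosome-binding kinesin, read 5.84, 5.66, 5.80 and 5.63 in control and 5.85, 5.76, 5.83 and 5.96 with PA, 0.11 higher with overlap.

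Top2a, Cdk1, Plk1 and Aurkb were also followed on every array, and none of them passed with PA, PMA or SA. Top2a differed by -0.17 ± 0.10 with PA and by 0.12 ± 0.10 with PMA, and Plk1 by 0.14 ± 0.08 with SA. Aurkb was 0.12 ± 0.06 higher with PMA, as 1 of the 8 members higher there at unadjusted p under 0.05. Top2a read 6.80, 6.27, 6.54 and 6.36 with PA, 6.72, 6.74, 6.79 and 6.86 with PMA and 6.97, 6.71, 6.80 and 6.46 with SA. Cdk1 read 8.57, 8.26, 8.59 and 8.42 with PA, 8.59, 8.42, 8.49 and 8.52 with PMA and 8.68, 8.51, 8.49 and 8.48 with SA. Plk1 read 6.75, 6.65, 6.67 and 6.52 with PA, 6.71, 6.71, 6.56 and 6.79 with PMA and 6.98, 6.67, 6.58 and 6.73 with SA. All of these overlapped their control values. Aurkb read 7.20, 7.13, 7.18 and 7.00 with PA, 7.21, 7.16, 7.24 and 7.16 with PMA and 7.23, 7.14, 7.14 and 7.18 with SA, with the PMA arrays beginning at the highest control value, to 2 decimals.

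PA replicates divided over the members as a whole. On replicates 1 and 3, 28 of 40 members were above their control mean, and on replicates 2 and 4 only 16 and 9 were, while 57.8% and 58.2% of all genes were above it on those 2 arrays. The group SD of the 40-gene mean was 0.08 with PA and 0.09 with SA, against 0.04 in control.

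**Figure D3:**
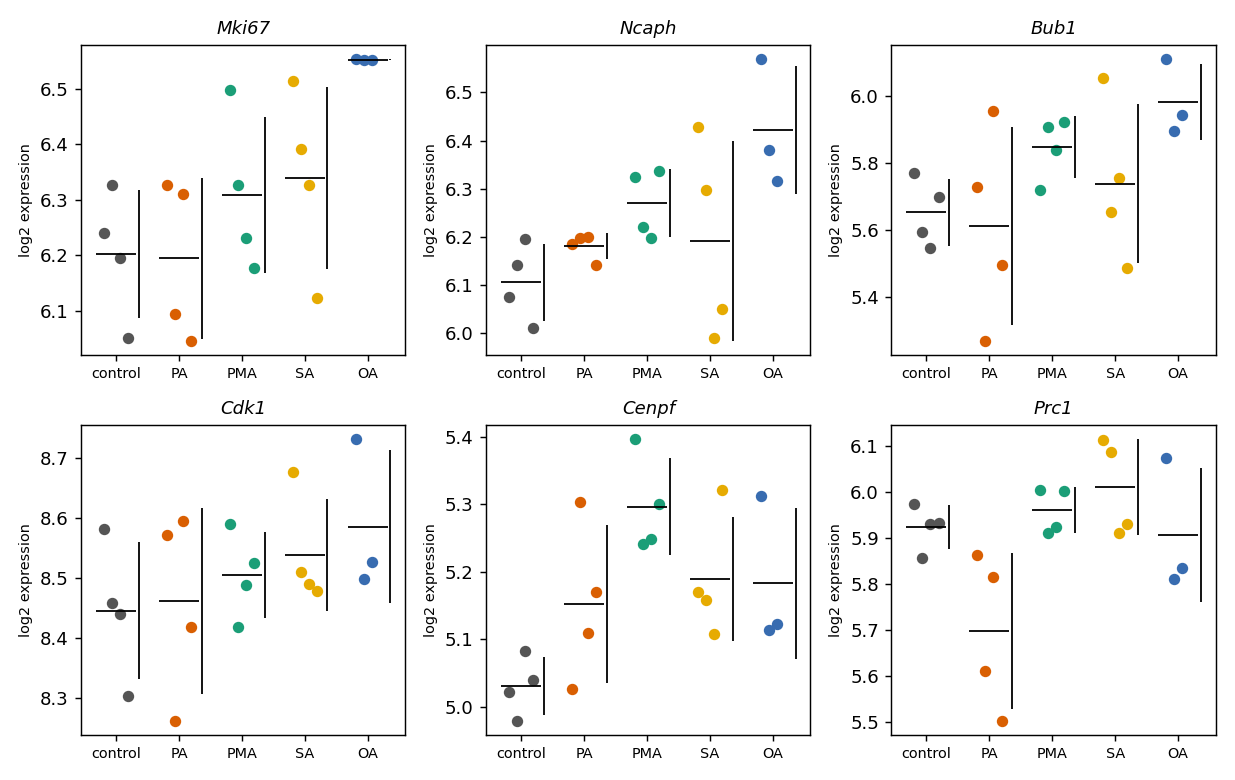
Log2 expression of 6 mitosis genes on every array by group; horizontal lines are group means and vertical lines the mean ± SD. Mki67 is at 6.55 on all 3 OA arrays, Cenpf is highest with PMA, and Prc1 is low on PA replicates 2 and 4.

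The acids were then set against each other at the same dose and time, as 2 pairs of 1 chain length, 2 pairs of 1 saturation, and the monounsaturated acids against the saturated ones. All p-values here are adjusted over genes, not over pairs, and no member passed in any pair. These comparisons share arrays with those against control and are not further evidence for them. With a double bond the members were higher at both chain lengths: 38 of 40 were higher in PMA and OA than in PA and SA, with a median of 0.09, against 59.0% and 0.01 over all genes. At unadjusted p under 0.05, 17 were higher and 0 lower, where 10.1% of all genes were higher. None passed, where 0.553% of all genes did. Without SA replicate 1 Ccna2 (adjusted p = 0.0125) and Kif11 (0.0454) passed, and without PA replicate 1 Top2a did (0.0450). The 17 became 11 without PA replicates 2 and 4, when the count was 5.89% of all genes, and 11 without PMA replicates 1 and 4 (4.55%). Again all 6 chromosome structure genes were among the 17, led by Top2a at 0.25 ± 0.08 (adjusted p = 0.171). Ccna2 differed by 0.22 ± 0.06 (adjusted p = 0.111), Cenpe, the kinetochore motor, by 0.20 ± 0.06, Racgap1 by 0.18 ± 0.05 and Kif4 by 0.17 ± 0.05.

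At 16 carbons, 35 of 40 members were higher with PMA than with PA (61.2% of all genes), 11 of them at unadjusted p under 0.05 (14.5% of all genes), none past the threshold (0.962%). Prc1 differed most clearly, by 0.26 ± 0.08 (adjusted p = 0.0839), and its PMA arrays, at 6.00, 5.91, 5.92 and 6.00, all lay above its PA arrays. The dimmer probe set of Prc1, with a mean of 3.94, lay under the olfactory receptor level of 4.98 and did not show this. Its differences from control were -0.04 with PA, -0.11 with PMA, -0.01 with SA and -0.15 with OA. The median of 0.12 was 0.04 without PA replicates 2 and 4, and the count of 11 became 1. It was 5 without PA replicate 2, 6 without PA replicate 4 and 7 without PMA replicate 4. The shares of all genes at these settings are not given here. Kif4, Prc1 and Top2a passed without PA replicate 1, and Prc1 and Racgap1 without PA replicate 3. At 18 carbons, 35 of 40 members were higher with OA than with SA (52.3% of all genes), 7 at unadjusted p under 0.05, where 1.16% of all genes were higher, and none passed (0.0319%). The median was 0.11, against 0.00 over all genes. Cenpe differed by 0.27 ± 0.08 and Ccnb2, a B-type cyclin, by 0.23 ± 0.08 (both adjusted p = 1.00). Ccnb2 read 7.17, 6.90, 6.99 and 6.98 with SA and 7.37, 7.19 and 7.17 with OA, which met but did not overlap.

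The last 2 pairs differ by chain length alone. SA was above PA in 29 of 40 members, against 43.8% of all genes (median 0.06, 5 at unadjusted p under 0.05, where 7.35% of all genes were higher), and OA above PMA in 28, against 29.2% (median 0.07, 1 at unadjusted p under 0.05, where 1.11% were higher). The median for SA against PA was 0.02 without SA replicate 1, and that for OA against PMA was 0.04 without OA replicate 1 and 0.10 without OA replicate 3. Prc1 was 0.31 ± 0.08 higher with SA than with PA (adjusted p = 0.111), with SA arrays at 6.11, 6.09, 5.91 and 5.93, all above PA, and passed without PA replicate 1 (0.0225). Of all genes 0.143% passed there and 0.0531% between OA and PMA. Mki67 was 0.24 ± 0.09 higher with OA than with PMA (adjusted p = 0.497), with a 95% interval from 0.05 to 0.44. The difference of the double-bond effect between chain lengths had a median of -0.01 (0.02 without SA replicate 1) and no member passed, where 0.00531% of all genes did; the largest was that of Prc1, -0.37 ± 0.11 (adjusted p = 0.929). In these 4 pairs all 40 members had 95% intervals within 1.5-fold. Intervals of this width do not show that the acids act alike.

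**Figure D4:**
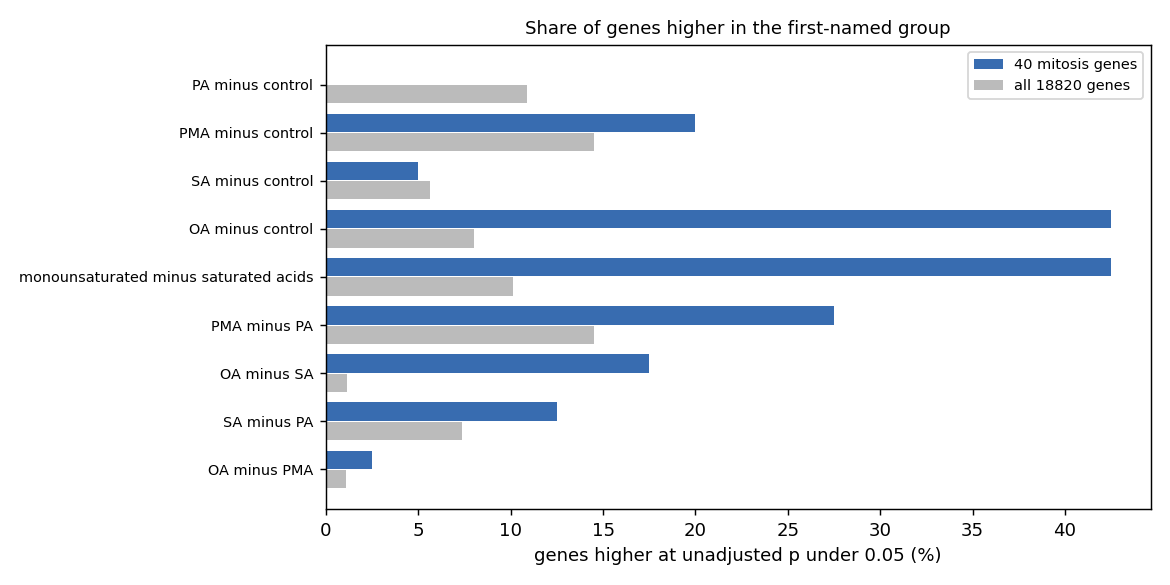
Share of the 40 mitosis genes (blue) and of all 18820 genes (grey) that were higher in the first-named group at unadjusted p under 0.05, in percent, for 9 comparisons. The blue bar stands for 17 of 40 genes for OA against control and for the monounsaturated against the saturated acids, and is absent for PA against control.

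Other genes of the cell cycle were described from lists. Of 51 other mitotic genes 43 were above control with OA, where 56.7% of all genes were (median 0.08), 11 at unadjusted p under 0.05 against 7.99% of all genes, and 1 passed: Mastl, the Greatwall kinase that restrains mitotic phosphatase, rose by 0.52 with adjusted p = 0.0172. Its adjusted p was 0.0647 without OA replicate 1, 0.0867 without OA replicate 2 and 0.0637 without control replicate 4. Cenpn, a centromere protein, was higher with the monounsaturated acids than with the saturated ones by 0.23 (adjusted p = 0.00412) and higher with PMA than with PA by 0.33 (adjusted p = 0.00371, 0.0883 when only those arrays were fitted, and 0.0670 without PMA replicates 1 and 4). These other mitotic genes had medians of -0.01 with PA, 0.08 with PMA and 0.05 with SA.

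Genes of earlier steps of the cycle were read in the same way. Of 29 DNA replication genes 16 were above control with OA, or 55.2%, close to the 56.7% of all genes (median 0.03). At unadjusted p under 0.05, 4 were higher, against 7.99% of all genes, and 2 lower, and 0 passed upward. The 1 that passed downward was Rpa3, of the single-strand DNA binding complex, at -0.40 with OA (adjusted p = 0.0410) and -0.55 with PMA (adjusted p = 0.00508). Rpa3 also passed for the mean of the 4 acids (-0.42, adjusted p = 0.00839, and 0.0920 without control replicate 4). With PA and SA no gene of the list passed, and the lowest differences in it were -0.33 and -0.38. For OA the adjusted p of Rpa3 was over the threshold without any 1 of the OA arrays (0.0733 to 0.233). It was also over it without control replicate 1, 3 or 4 (0.0923, 0.0968 and 0.146) and with the replicate block (0.0927). Without PMA replicate 3, SA replicate 1 or SA replicate 3 it was 0.0524 to 0.0543. For PMA it was 0.0735 without PMA replicates 1 and 4. Of 26 genes of cell cycle entry and exit, such as cyclins D and E and the kinase inhibitors, 17 were above control with OA, or 65.4% (median 0.07), and none passed; E2f8, a repressor of the E2F family, was 0.29 higher (adjusted p = 0.0725) and Myc differed by -0.22 (adjusted p = 0.155). The 5 measured genes of MuvB, B-Myb and FoxM1 had a median of 0.02 with OA, and none passed.

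Markers of undifferentiated cells, adipocytes and macrophages were set beside the mitosis genes. The mean of 10 preadipocyte and fibroblast markers was 10.16 to 10.23 on the control arrays, 10.16 to 10.29 with PA, 10.28 to 10.38 with PMA, 10.22 to 10.26 with SA and 10.22 to 10.31 with OA. PA replicate 2, low for the mitosis genes, lay above every control array here, and the OA arrays overlapped control. With OA 9 of 10 of these markers were above control, where 56.7% of all genes were, and none passed. With PMA 10 of 10 were, where 78.5% of all genes were, and Col1a1, a collagen chain, passed (0.26, adjusted p = 0.0463). Its adjusted p was over the threshold without any 1 of the control arrays (0.0779 to 0.172). It was also over it after cyclic loess (0.0651), with the replicate block (0.0888) and with the compared groups alone (0.0851). Without PMA replicate 1, 3 or 4 it was 0.159, 0.0963 and 0.143, and without PMA replicates 1 and 4 together 0.589. The mean of 11 adipocyte markers was 11.19 to 11.20 in control, 11.25 to 11.29 with OA, 11.24 to 11.29 with SA, 11.20 to 11.24 with PMA and 11.17 to 11.25 with PA. The OA and SA arrays thus lay above all control arrays for the adipocyte markers, none of which passed with OA. The macrophage markers ranged from 4.62 to 4.72 in control, from 4.66 to 4.81 with PA, from 4.67 to 4.82 with PMA, from 4.57 to 4.64 with SA and from 4.62 to 4.67 with OA. The part of these cell markers in the difference of the mitosis genes was not tested.

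The mitosis genes also varied together between replicate arrays, which the treatments do not set. After the group mean was taken from each value, 85.4% of 780 pairs of members correlated above 0 over the 19 arrays, with a mean Pearson r of 0.29, against 0.10 over pairs of all genes. Cdk1 followed the mean of the other members most closely (r = 0.84, Spearman rho = 0.79), then Prc1 (r = 0.79, rho = 0.83) and Plk1 (r = 0.78, rho = 0.76). At the other end were Kif15 (r = 0.14), Birc5 (r = 0.07) and Cenpf (r = -0.15). Cenpf, the member farthest from control with PMA, followed the others least. The 2 arrays whose deviation of the 40-gene mean lay farthest from the median deviation of the 19 arrays were SA replicate 1 and OA replicate 1, and without them r was 0.81 for Cdk1, 0.78 for Prc1, 0.65 for Plk1 and -0.33 for Cenpf. These points share arrays and their normalization, and the correlations are a description.

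**Figure D5:**
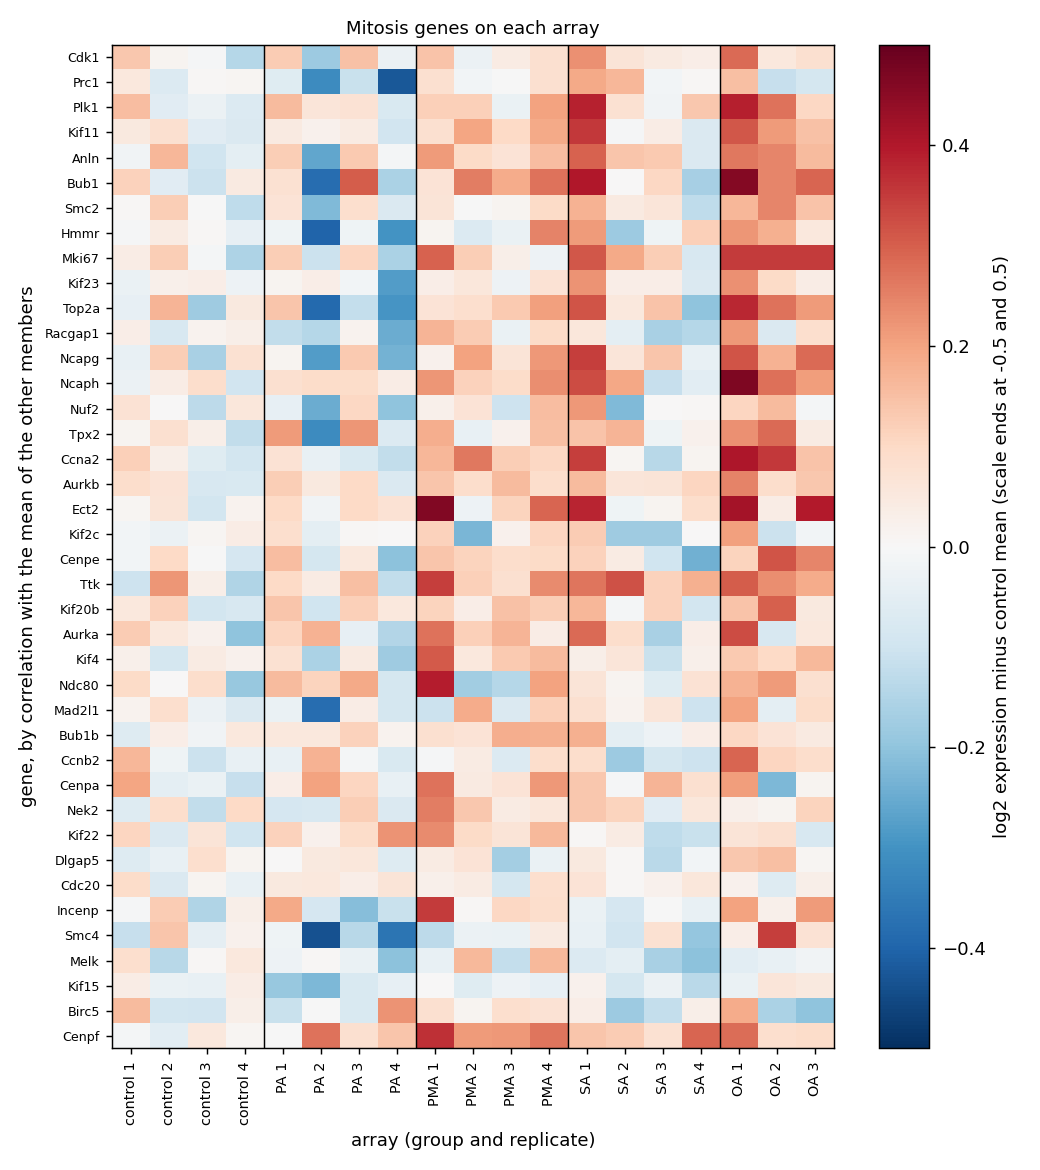
Log2 expression of the 40 mitosis genes minus their control mean on each of the 19 arrays, red higher and blue lower, genes ordered by how closely they follow the mean of the other members (Cdk1 first at r = 0.84, Cenpf last at -0.15). OA replicate 1 and SA replicate 1 are red over most rows, and PA replicates 2 and 4 are blue in many of the upper rows.

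Outside the members, the 8 genes whose deviations over the 19 arrays most resembled the mean of the mitosis genes were Tex19.1 (r = 0.91, rho = 0.90), Mcm3 (r = 0.85), Prmt7 (r = 0.85), Slc25a37 (r = 0.84), Kpna2 (r = 0.84, rho = 0.93), Mrpl42 (r = 0.84), Tnfrsf22 (r = 0.84) and Cdnf (r = 0.83). Mcm3 is a subunit of the replicative helicase, and Kpna2 is an importin that carries proteins into the nucleus. Without the 2 farthest arrays r was 0.78 for Mcm3 and 0.84 for Kpna2. Only Mcm3 stood on one of the cell cycle lists.

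The promoters of the members were also read for the letters known from late cell cycle promoters. These were the CCAAT box that binds NF-Y, and TTTGAA or TTCGAA, the cell cycle genes homology region that binds MuvB. The members were chosen by name as mitosis genes, so their shares are a description. A link of these letters to the variation between replicate arrays was not tested. Both strands of the 250 bases before the start were searched, in RefSeq promoters of GRCm38.p6, which held 34 of the 40 members. CCAAT was found in 24 of 34 members (70.6%), against 34.5% of the 27025 genes with a promoter in the table, and 2 or more copies in 14 (41.2%), against 10.5%. TTTGAA or TTCGAA was found in 13 (38.2%), against 17.4% of all genes, and both kinds together in 11 (32.4%), against 6.21%. The members with TTTGAA or TTCGAA had a median difference of 0.16 with OA and the 21 others 0.13; for the 24 with CCAAT it was 0.15 and for the 10 without it 0.08. A match of letters is no evidence of binding, and no match says only that the letters are not in this window.

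The 150 bases before the start are shown for Mki67, Top2a, Cdk1 and Plk1, those of the 6 fixed genes whose promoter was in the table. They are also shown for Ncaph, with the second smallest p for OA, which has none of these letters in the window shown. Other genes given on every array are not shown. Of these, Birc5, Melk and Kif15 had no CCAAT in the 250 bases, and Cenpf, Prc1, Kif4, Kif22, Ttk, Bub1 and Ccnb2 had it. Capitals mark CCAAT (or ATTGG on the other strand), TTTGAA (or TTCAAA) and TTCGAA.
Mki67 (chr7:135716380-135716529, minus strand): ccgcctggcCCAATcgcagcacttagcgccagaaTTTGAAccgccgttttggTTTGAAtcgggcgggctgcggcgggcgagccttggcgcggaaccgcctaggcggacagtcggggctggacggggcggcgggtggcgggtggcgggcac
Top2a (chr11:99024190-99024339, minus strand): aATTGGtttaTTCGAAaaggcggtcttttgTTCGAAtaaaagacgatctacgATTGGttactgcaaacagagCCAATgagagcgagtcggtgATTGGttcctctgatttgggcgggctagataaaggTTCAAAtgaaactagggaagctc
Cdk1 (chr10:69352913-69353062, minus strand): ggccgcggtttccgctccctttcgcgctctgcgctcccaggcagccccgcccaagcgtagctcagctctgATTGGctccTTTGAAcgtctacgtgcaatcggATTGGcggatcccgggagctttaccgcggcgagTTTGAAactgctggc
Plk1 (chr7:122159285-122159434, plus strand): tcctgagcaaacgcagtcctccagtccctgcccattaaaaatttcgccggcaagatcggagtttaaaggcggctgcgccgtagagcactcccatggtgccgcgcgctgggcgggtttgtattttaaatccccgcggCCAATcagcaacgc
Ncaph (chr2:127133955-127134104, minus strand): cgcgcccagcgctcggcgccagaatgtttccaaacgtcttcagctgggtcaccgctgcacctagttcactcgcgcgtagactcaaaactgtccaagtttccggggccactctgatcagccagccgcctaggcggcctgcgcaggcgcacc
Top2a held 4 CCAAT boxes and 3 of the MuvB letters in these 150 bases, Cdk1 2 and 2, Mki67 1 and 2, and Plk1 1 and 0. With OA their differences were 0.29, 0.14, 0.35 and 0.26, and that of Ncaph, with 0 and 0, was 0.32.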

How the data were processed

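Gene expression was measured on Affymetrix Mouse Gene 1.1 ST arrays from 100 ng of total RNA with integrity numbers over 9.0. The authors deposited 1 log2 value for each probe set, made by RMA with affy 1.34.0 in R 2.15.0, per the submitters' processing notes; any other step is not given in the sources used here. The table held 35556 probe sets, 21218 with 1 gene symbol, 1881 with several and 12457 unnamed in the array's annotation. The brightest single-symbol probe set stood for each of 18820 genes, with no filter. limma 3.58.1 in R 4.3.3 (lmFit, eBayes) fitted 1 mean per group to all 19 arrays; 11 contrasts were tested two-sided and adjusted within each by Benjamini-Hochberg. The fit was tested on simulated data. The number of arrays limits the precision. The members, lists and tests were chosen with earlier results of these data known; the count at unadjusted p under 0.05 was added after no member passed. The text names members freely, and gives values on every array for 6 fixed genes (Mki67, Top2a, Ccnb1, Cdk1, Plk1 and Aurkb, of which Ccnb1 was not measured) and, per acid, for the 2 members with the smallest p in each direction. Bub1 and Ccna2, and Ccnb2 in 1 pair, were given in full after their values were seen. Alternatives were filters on dim genes, averaged probe sets, cyclic loess, a trended robust spread, array weights, a replicate block, fits to the compared groups alone, and arrays left out. Over all genes, same-numbered arrays of different groups did not deviate together (mean r = -0.02 over 36 pairs). For the 40-gene mean, however, replicate 1 was the highest array in every group. The labels do not say that equal numbers mark a shared day. The numbers were therefore not used to pair arrays in the main fit, and the replicate block was kept as an alternative.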

Additional observations from a re-analysis of the deposited data

Results flagged for a closer look

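The 40-gene mean and the genes given on every array by rule were checked in 64 sets of 4 arrays. Bub1, Ccna2 and Ccnb2 were not among them. In 3 sets 1 array stood far from the others, with a gap of 0.838 or 0.839 of the range of the 4. Chance marks about 1 set in 20. Cdk1 stood at 8.68 on SA replicate 1, where the other SA arrays lay from 8.48 to 8.51. Plk1 stood at 6.75 on control replicate 1, with the others from 6.53 to 6.56. Kif4 stood at 4.31 on control replicate 2, with the others from 4.42 to 4.44.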

How the results depend on the processing

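The count of members past the threshold became 1 for PMA against control (Cenpf) without the dimmest 1 in 3 genes, without genes below the olfactory level, with array quality weights and without PA replicates 2 and 4. For OA against control it became 1 (Mki67) with a trended robust spread, with the compared groups alone and without PA replicates 2 and 4, and 8 with array quality weights. The count higher at unadjusted p under 0.05 moved for SA against control from 2 to 1 under both dim filters, 6 with weights and 4 with the replicate block; for PMA against control from 8 to 1 after cyclic loess, 5 with a trended robust spread and 1 without PMA replicates 1 and 4; and for PMA against PA from 11 to 7 with weights, 1 without PA replicates 2 and 4 and 2 without PMA replicates 1 and 4. Without PA replicates 2 and 4 it was 1 for PA against control and 11 for the monounsaturated against the saturated acids, also 11 without PMA replicates 1 and 4, and the median for PMA against PA was 0.0422. It was 8 for OA against control without SA replicate 1 and OA replicate 1 together. Settings that leave out 2 arrays at once were chosen after seeing the data, apart from PA replicates 2 and 4. That setting was planned, but with earlier results of these data known, and these arrays had the lowest 40-gene means (5.90 and 5.89). Leaving out 1 array at a time, the count past the threshold ranged from 0 to 1 for PA, 0 to 1 for PMA, 0 to 2 for monounsaturated against saturated, 0 to 3 for PMA against PA and 0 to 1 for SA against PA, and stayed 0 in the other 6 comparisons. The unadjusted count ranged from 0 to 1 for PA, 2 to 9 for PMA, 1 to 4 for SA, 6 to 18 for OA, 12 to 21 for the monounsaturated against the saturated acids and 5 to 14 for PMA against PA. 2 single values changed sign, Smc4 with PMA (-0.0764 to 0.00827, highest without control replicate 2) and Birc5 with OA (-0.18 to 0.01, 0.013 without OA replicate 3). With the replicate block the unadjusted count for OA was 14, and no member passed in any comparison. The cause of these changes was not tested. Where no share of all genes stands beside a count, a change in the members cannot be told from a change over the whole chip. Few arrays and a dim signal for 6 members limit what could be detected.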
